A study of Canis lupus familiaris with 4 samples.

Results

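The comparison of HIF2α-KD with control cells in normoxia rests on 2 of the 4 arrays of a microarray experiment in Madin-Darby canine kidney (MDCK) cells. The arrays were chosen by their labels, HIF2A knockdown in normoxia and wild type in normoxia, and each condition has 1 array. All cells were MDCK strain II, a polarised kidney epithelial line of the dog, and both cultures were kept for 24 h in normoxia and then for a further 24 h at 16% O2. The knockdown came from a retroviral short hairpin RNA (shRNA) under puromycin selection, the study names a single knockdown line for the normoxic arrays, and control cells carried an empty cassette. The labels name neither the line nor the cassette and call the control cells wild type. The other 2 arrays come from the same kinds of cells after 24 h at 1% O2, and their difference is placed beside that of the normoxic pair, with which it shares no array.

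HIF2α, the product of *EPAS1*, is the oxygen-regulated subunit of a transcription factor and pairs with the protein encoded by *ARNT* to bind hypoxia response elements. When oxygen is plentiful, prolyl hydroxylases of the EGLN family mark it and the von Hippel-Lindau protein directs its degradation, so its activity in normoxia is usually low. In the kidney it is known for driving erythropoietin in interstitial cells and for its role in clear cell carcinomas that have lost *VHL*. MDCK cells resemble the epithelium of the distal tubule and collecting duct and are used to study epithelial polarity.

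The labels were first checked with *EPAS1*. In normoxia the control array gave an intensity of 44.6 and the HIF2α-KD-labelled array one of 47.9, against 116 and 32.6 in hypoxia. The normoxic pair thus differed by 0.08 on the log2 scale and the hypoxic pair by -1.45. The lower mRNA level of the targeted gene was thus not seen in normoxia. *EPAS1* was read by 1 probe set, and its normoxic values lay not far above the background cut-offs of 27.2 and 20.6 given below. By quantitative PCR the study reports lower *EPAS1* mRNA in its knockdown lines, most of all in the line it names for the normoxic arrays. The array is called by its label throughout, and every direction is drawn from that label. *ARNT* differed by -0.05, *HIF1A*, which encodes the other main oxygen-regulated subunit, by -0.10 and *VHL* by 0.00. The reference gene *TBP* was at 584 and 566, a difference of -0.04.

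Differences are given as log2(intensity + 16) of the HIF2α-KD-labelled array minus that of the control array, a scale that understates the change of dim genes. With 1 array a side there is no replicate check, no error and no p-value, and the number of arrays limits the precision. A gene was kept when the highest of its 4 intensities reached 28.75, the median of the canine probe sets, and was represented by its brightest probe set. This left 9749 of 15115 genes. By this rule a dim gene can pass through 1 array alone, so the side of 0 on which such a gene lies is partly set by the filter. Across these genes the normoxic arrays correlated at 0.989 and the differences had an SD of 0.317, with a median of -0.04 and quartiles of -0.20 and 0.13. Probe sets of the same gene differed from each other with an SD of 0.223. A gene was called dim on an array where it lay under the 95th percentile of 63 reporter probe sets that match no canine gene, which was 27.2 for the control and 20.6 for the labelled knockdown.

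At a threshold of 2-fold, 60 genes were higher on the HIF2α-KD-labelled array (0.615% of the genes kept) and 53 were lower (0.544%). Both counts include dim genes that passed the filter only through the normoxic array on which they were high. Examples are *RAB37* under the HIF2α-KD label and *OR8S7* in control cells, whose direction was set by the filter. Of all genes kept, 43.5% had a difference above 0 and 56.4% one below 0. The counts above or below 0 in each list are to be read beside these shares. Of 32 higher genes that stand in the 4 programs described here, 29 belong to inflammatory or matrix lists, led by the chemokine gene *CCL2* and the collagenase gene *MMP13*. Of 21 lower genes in these programs, 15 belong to lipid or stress lists, led by the hormone gene *FGF21* and the lipoprotein receptor gene *VLDLR*.

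The inflammatory lists held 151 of the genes kept (1.55%) and 14 of the 60 genes that were higher (23.3%), against 3 of the 53 that were lower (5.66%). The matrix lists held 195 (2.00%), with 16 of the 60 (26.7%) and 4 of the 53 (7.55%). In the lipid lists, with 157 genes (1.61%), none was at least 2-fold higher and 7 were lower (13.2%). The stress lists held 250 genes (2.56%), of which 3 were higher (5%) and 10 lower (18.9%). A gene can stand in several lists, and the 4 programs together accounted for 32 of the 60 and 21 of the 53. Median differences were 0.15 for the inflammatory, 0.09 for the matrix, -0.12 for the lipid and -0.05 for the stress genes. The lists were chosen with earlier results of these data known, so these shares may partly reflect that choice. The counts describe 1 pair of arrays, and nothing was tested.

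**Figure D1:**
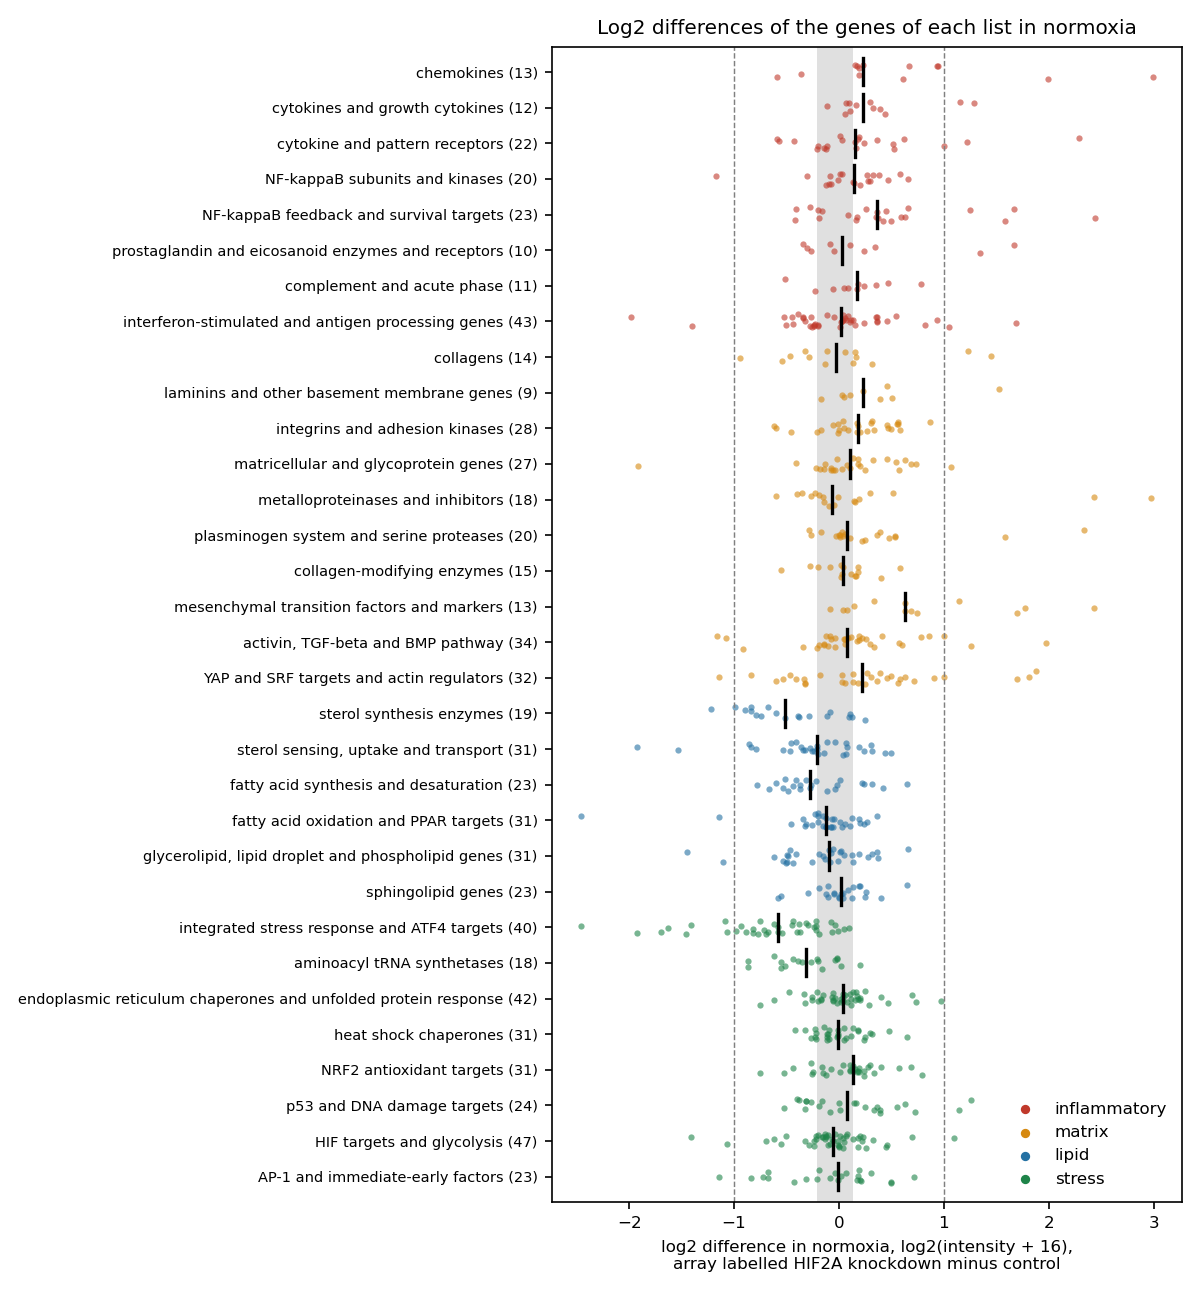
Log2 differences in normoxia of every kept gene in the 32 inflammatory, matrix, lipid and stress lists, with gene numbers in brackets. Each point is a gene, black bars are list medians, the grey band spans the quartiles of all 9749 genes (-0.20 to 0.13) and dashed lines mark 2-fold. The mesenchymal list has the highest median, 0.63, and the integrated stress response list the lowest, -0.58.

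Inflammatory genes can be ordered from the secreted ligands through their receptors to the NF-κB pathway, in which IκB proteins hold the transcription factor in the cytoplasm until IκB kinases release it. NF-κB then switches on chemokines, survival genes and its own inhibitors. Chemokine genes were largely higher on the HIF2α-KD-labelled array: 11 of 13 lay above 0, the median was 0.23 and 2 were at least 2-fold higher. *CCL2*, whose product attracts monocytes, was at 982 in control cells and 7958 under the HIF2α-KD label, against 2270 and 1292 in hypoxia. This was the largest positive difference of all genes kept, at 3.00, and the normoxic HIF2α-KD-labelled array carried the highest of the 4 values. *CXCL8*, which encodes a neutrophil attractant, was at 28.3 and 161 in normoxia and at 36.4 and 24.4 in hypoxia, a normoxic difference of 1.99, and its other probe set gave 0.82. *CCL7* and *CCL28* followed at 0.94 each, and both were dim on the control array. *CCL28* passed the filter only through the normoxic HIF2α-KD-labelled array. Without the filter the median of the 21 chemokine genes on the array was also 0.23. *CXCL16*, for a membrane-bound chemokine, was bright, at 1975 and 3150 (0.67). The 2 chemokine genes below 0 were *CCL17* (1457 and 962, -0.59) and *CXCL14* (-0.36).

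Of 12 kept cytokine genes 11 lay above 0, with a median of 0.23, and 4 of the 12 were dim on a normoxic array. *TNFSF9*, at 23.5 and 37.5, passed the filter only through the normoxic HIF2α-KD-labelled array. The count above 0 is therefore partly set by the filter. *CSF2*, which encodes a growth factor for granulocytes and macrophages, was at 1117 and 2499 in normoxia, a difference of 1.15, and at 1803 and 1736 in hypoxia. *IL23A*, for an interleukin subunit, was dim on the control array at 22 and reached 76.4, a difference of 1.28. *TNF* was at 22.9 and 35.1 (0.39). Without the intensity filter the median of the 34 cytokine genes was 0.08. Among 22 receptor genes 14 lay above 0 and 3 were at least 2-fold higher, with a median of 0.16, against 0.04 over the 37 on the array without the filter. *ACKR3*, which encodes a scavenger receptor for chemokines, was dim on the control array at 23.1 and stood at 175 on the HIF2α-KD-labelled array (2.29), while in hypoxia it was at 413 and 482. *CD40*, a receptor of the tumour necrosis factor family, was at 285 and 683 (1.22). *IL10RB*, a shared interleukin receptor chain, was at 482 and 985 (1.01), just over the threshold.

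NF-κB subunits and kinases differed little as a list, with 13 of 20 above 0 and a median of 0.14. *TRAF2* (0.66) and *TRADD* (0.58), adaptors of tumour necrosis factor receptors, were highest, and *NFKB1*, a subunit, was at 503 and 619 (0.29). *RIPK2*, the kinase downstream of NOD receptors, was 2-fold lower, at 1239 and 541 (-1.17), with its other probe set at -1.11. The 23 NF-κB feedback and survival targets had a median of 0.36, and 17 lay above 0. *BIRC3*, an inhibitor of apoptosis, was at 1160 and 6373 (2.44), and its 3 probe sets ranged from 1.62 to 2.44. *NFKBIA*, which encodes the inhibitor IκBα, was at 667 and 1608 (1.25). *BCL2A1* (0.66) and *GADD45B* (0.63), both linked to survival under stress, were higher by less than 2-fold. In hypoxia 20 of these 23 genes lay below 0, against 55.7% of all genes kept, and the list median was -0.45. *BIRC3* was there at 3735 and 2127, and *NFKBIA* at 1555 and 738, so that the control array carried the higher value of each hypoxic pair.

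*PTGS2*, which encodes cyclooxygenase-2, the inducible enzyme of prostaglandin synthesis, was bright on every array. It was at 2003 and 6408 in normoxia (1.67) and at 11974 and 6191 in hypoxia (-0.95), so the control array was the lowest of the 4 in normoxia and the highest in hypoxia. *PTGER4*, a receptor for prostaglandin E, was at 46.2 and 142 (1.34). *PLA2G4A*, the phospholipase that releases arachidonic acid, differed by 0.35. The other enzymes lay between -0.35 (*PTGES2*) and 0.10 (*PTGES*), and the list of 10 genes was split 5 to 5 with a median of 0.03.

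Interferon-stimulated and antigen-processing genes did not share a direction. Of 43 genes 23 lay above 0, 2 were at least 2-fold higher, 2 at least 2-fold lower, and the median was 0.02. *GBP5*, for an interferon-induced GTPase, was at 37.9 and 158 (1.69), and the related *GBP1* at 31.1 and 74.0 (0.94). *PSMB8*, an immunoproteasome subunit, was at 35.2 and 89.8 (1.05). *IDO1* and *IDO2*, for enzymes that break down tryptophan, were lower, at 576 and 208 (-1.40) and at 631 and 148 (-1.98). The 4 probe sets of *IDO2* ranged from -1.98 to 0.40, while those of *IDO1* lay from -1.69 to -1.40. Classical antiviral genes such as *MX1* (-0.26), *ISG15* (-0.45) and *OAS1* (-0.27) were below 0. None of 11 complement and acute-phase genes differed 2-fold. *SERPINA1*, which encodes the protease inhibitor alpha-1 antitrypsin, was highest at 0.79 and dim on the control array, and *C1S*, a complement protease gene, lowest at -0.51.

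Leukocyte markers were read beside these lists, since in bulk RNA a change in the number of cells of a type and a change in RNA per cell cannot be told apart. Of 16 on the array, 7 in control cells and 9 under the HIF2α-KD label exceeded the reporters' 95th percentile, and their summed intensity was 390 and 406. That cut-off was 27.2 in control cells and 20.6 under the label, and 9080 and 9478 of the 9749 genes kept exceeded it. The signalling adaptor *TYROBP* was at 1.00 and 3.20 and lysozyme (*LYZ*) at 11 and 12.7, both within the background. The pan-leukocyte gene *PTPRC* was at 38.1 and 39.4, above it. Endothelial markers summed to 1615 and 2021, of which *FLT1* made up 1208 and 1672. The 4 kept endothelial markers were split, with *FLT1* (0.46) and *CDH5* (92.7 and 117, 0.29) above 0 and *EGFL7* (183 and 123, -0.52) and *CLDN5* (27.5 and 20.1, -0.27) below. *PECAM1*, *KDR* and *VWF*, which define that cell type, lay within the background on both arrays. The part of these markers in the inflammatory differences was not tested.

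**Figure D2:**
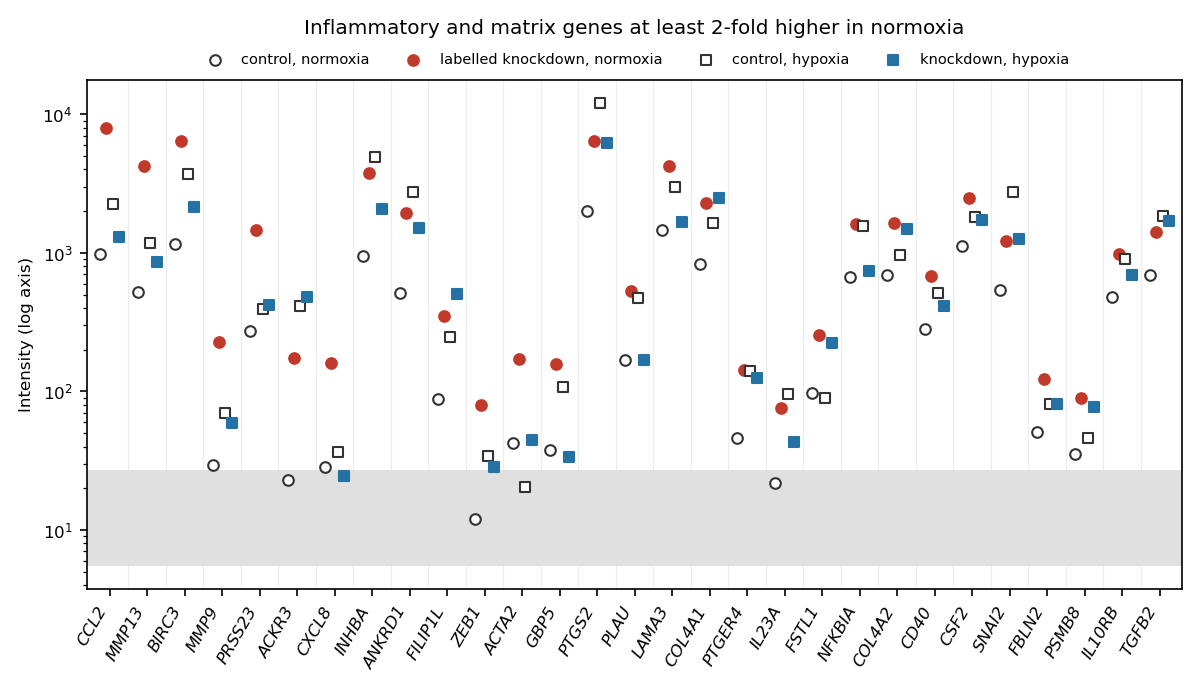
Intensities on a log axis of the 29 inflammatory and matrix genes at least 2-fold higher in normoxia, on all 4 arrays. Circles are normoxia and squares hypoxia, open symbols the control cells and filled symbols the cells labelled knockdown, and the grey band covers reporter background, from the smallest array median (5.48) up to the largest 95th percentile (27.2). *CCL2* goes from 982 to 7958 in normoxia and *ZEB1* starts inside the background at 11.9.

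Matrix genes comprise the proteases that cut the extracellular matrix, the basement membrane on which epithelia rest, the integrins that bind it, and the transforming growth factor (TGF)-β family that regulates all of these. The largest matrix differences were in proteases. *MMP13*, a collagenase, was at 526 and 4263 in normoxia, a difference of 2.98, and at 1181 and 860 in hypoxia. Its other probe set gave 3.10. *MMP9*, a gelatinase, was at 29.3 and 228 (2.43), but its other probe set gave 0.22, so the size of this difference depends on the probe set. The list of 18 metalloproteinases and inhibitors as a whole had 11 genes below 0, against 56.4% of all genes kept, and a median of -0.07. *MMP17* (-0.60) was the lowest, and the inhibitor *TIMP3* was at 3085 and 4425 (0.52). No member other than *MMP13* and *MMP9* exceeded *TIMP3*.

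In the plasminogen system and serine proteases, 15 of 20 genes lay above 0 and the median was 0.08. *PRSS23*, for a secreted serine protease, was at 275 and 1451 (2.34), and its 3 probe sets lay from 1.55 to 2.45. In hypoxia it was at 393 and 421. *PLAU*, which encodes urokinase, the protease that activates plasminogen, was at 168 and 535 (1.58) in normoxia and at 476 and 170 in hypoxia (-1.40). Next were the protease inhibitors *TFPI2* and *SERPINE2*, both at 0.53.

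*COL4A1* and *COL4A2*, the paired chains of the main basement membrane collagen, were at 834 and 2300 (1.45) and at 693 and 1645 (1.23). In hypoxia the pair was also higher in the knockdown cells, at 1641 and 2508 and at 972 and 1488, each by 0.61. The other 12 kept collagen genes lay between -0.94 (*COL16A1*) and 0.32 (*COL17A1*), and the median of the collagen list was -0.03. The other probe set of *COL16A1* gave 0.52, the opposite direction. Of 9 laminin and other basement membrane genes, 8 lay above 0 with a median of 0.23, against 0.10 over the 21 genes on the array without the filter. *LAMA3*, a chain of the laminin under epithelia, was at 1458 and 4243 (1.53), with its other probe set at 1.45, and its partner *LAMB3* differed by 0.51. In hypoxia *LAMA3* was at 2967 and 1661 (-0.83), the opposite direction to the collagen pair.

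Among 28 integrins and adhesion kinases, 20 lay above 0 with a median of 0.18, and none differed 2-fold. *ITGB6*, an epithelial integrin chain that activates latent TGF-β, was at 858 and 1581 (0.87; 3 probe sets from -0.03 to 0.87). *ITGA2*, a collagen-binding chain, differed by 0.56 and *ILK*, an adaptor of adhesion sites, by 0.57. Its partner *LIMS1* was lowest, at 449 and 288 (-0.62). In hypoxia 25 of the 28 lay below 0, against 55.7% of all genes kept, with a median of -0.27.

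Of 27 matricellular and glycoprotein genes 16 lay above 0, with a median of 0.10. The bright thrombospondin gene *THBS1* was at 7909 and 13186 (0.74) and the fibronectin gene *FN1* at 3477 and 5398 (0.63). *FBLN2*, for the matrix protein fibulin-2, was at 50.8 and 124 (1.06). In the other direction *EFEMP1*, another member of the fibulin family, was at 259 and 57.0 (-1.91), with its second probe set at -1.08. The 15 collagen-modifying enzymes had a median of 0.04, with *LOXL2* (0.58) highest and the prolyl hydroxylase *P4HA1* (-0.56) lowest. The 3 probe sets of *LOXL2* lay from 0.02 to 0.58.

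The 13 kept genes of mesenchymal transition had the highest median of all lists described, 0.63, and 12 lay above 0. *ZEB1* and *SNAI2* encode repressors of epithelial genes. *ZEB1* was dim on the control array at 11.9 and stood at 79.4 on the HIF2α-KD-labelled array (1.77), and *SNAI2* was at 542 and 1218 (1.15). *ACTA2*, for smooth muscle actin, was at 42.3 and 173 (1.69), and at 20.3 and 45.0 in hypoxia. *CDH2*, for N-cadherin, was at 310 and 530 (0.75), while its other probe set gave -0.03, and *TAGLN*, an actin-binding marker, differed by 0.63. Without the filter the median of the 25 genes on the array was 0.24, with 12 further genes that had not passed it. *SNAI1* (3.42 and 8.38) and *ZEB2* (1.76 and 8.10) lay within the background and did not pass the filter. *VIM*, for vimentin, was close to the top of the intensity range on both arrays, at 17049 and 17961 (0.08).

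In the activin, TGF-β and BMP pathway, the largest differences were in secreted ligands, a binding protein and a target gene. *INHBA*, which encodes the activin A subunit, was at 947 and 3763 in normoxia (1.97) and at 4923 and 2060 in hypoxia (-1.25). *FSTL1*, a secreted glycoprotein that modulates the family, was at 96.8 and 255 (1.26), and in hypoxia at 89.0 and 224 (1.19), so that both pairs differed in the same direction. *TGFB2*, a TGF-β ligand, was at 698 and 1411 (1.00), at the threshold. *FST*, for the activin antagonist follistatin, was at 266 and 471 (0.79). *BMP2*, a ligand of the other branch, was at 725 and 335 (-1.08), and *ID1*, a classical BMP target, at 551 and 238 (-1.16). In hypoxia both lay above 0, at 0.17 and 0.45. *BAMBI*, a pseudoreceptor that dampens TGF-β signals, was at 129 and 203 (0.60). The activin receptor *ACVR2B* was at 32.2 and 9.50 (-0.92), dim on the HIF2α-KD-labelled array. The receptors *TGFBR1* (-0.04) and *TGFBR2* (-0.19) and the mediators *SMAD2* (-0.14) and *SMAD4* (-0.12) lay within the quartiles of all genes, and the median of the 34 genes was 0.07.

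YAP and SRF targets and actin regulators, which respond to cell tension, had 22 of 32 genes above 0 and a median of 0.22. *ANKRD1* was at 517 and 1940 (1.88; other probe set 2.09) and *FILIP1L* at 88.7 and 351 (1.81), although the dimmer probe sets of *FILIP1L* gave 0.51 to 0.76. *SRF* itself was at 439 and 731 (0.71). *CCN1* (0.25) and *CCN2* (0.13), the best-known YAP targets, were higher by little, and *YAP1* (-0.54) and its paralogue *WWTR1* (-0.33) lay below 0. The immediate-early gene *FOS* was 2-fold lower, at 1081 and 482 (-1.14). Fibroblast markers, read beside the matrix lists, summed to 142 in control cells and 137 under the HIF2α-KD label over 11 genes. *COL1A1*, *COL1A2*, *COL3A1* and *DCN*, which define fibroblasts, lay within the background on all 4 arrays. Of the 11 genes, 1 in control cells and 2 under the HIF2α-KD label exceeded the background in normoxia. *PDGFRA* exceeded it on all 4 arrays, at 31.5 and 33.8 in normoxia and at 145 and 75.7 in hypoxia. *LUM*, at 19.8 and 27.8 in normoxia, exceeded it there only under the HIF2α-KD label.

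Cells make cholesterol under the control of the SREBP2 transcription factor, encoded by *SREBF2*, which SCAP carries from the endoplasmic reticulum when sterols are low and INSIG proteins hold back when they are high. Genes of this pathway were mostly lower on the HIF2α-KD-labelled array. Of 19 sterol synthesis enzymes 15 lay below 0, against 56.4% of all genes kept, and the median was -0.52. *HMGCS1*, an early enzyme of the pathway, was at 5577 and 2388 (-1.22), and its 3 probe sets lay from -1.22 to -1.14. It was at 10580 and 10600 in hypoxia (0.00), where its other probe sets differed by 0.31 and 0.30. *FDFT1*, which makes squalene, was at 1023 and 506 (-0.99), just short of the threshold. *CYP51A1*, a sterol demethylase, was at 4684 and 2519 (-0.89) and *SQLE*, which oxidises squalene, at 6426 and 3596 (-0.83). The genes above 0 were *PMVK* and *MVK* (0.10 each), *LSS* (0.13) and *GGPS1* (0.25). In hypoxia 14 of the 19 lay below 0, against 55.7% of all genes kept, with a smaller median of -0.18.

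Of 31 genes of sterol sensing, uptake and transport 21 lay below 0 and the median was -0.21. *INSIG1* was at 475 and 153 (-1.54; other probe set -0.78) and *VLDLR* at 290 and 64.5 (-1.92; other probe set -1.40). *SREBF2* was at 345 and 185 (-0.84) and *NPC1L1*, a cholesterol importer, at 927 and 506 (-0.85). *SREBF1*, for the related factor of fatty acid synthesis, differed by 0.06 and the sterol exporter *ABCA1* by 0.31. Of 23 genes of fatty acid synthesis and desaturation 17 lay below 0, with a median of -0.27 and none at 2-fold. The stearoyl-CoA desaturase gene *SCD* was at 9291 and 5418 (-0.78), the elongase *ELOVL5* at 607 and 377 (-0.66) and *ACLY*, which supplies acetyl-CoA, at 9541 and 6281 (-0.60). The 3 probe sets of *ACLY* ranged from -0.82 to 0.21. The fatty acid synthase gene *FASN* was at 1630 and 1346 (-0.27). *FADS3*, for a desaturase-like protein, was highest, at 358 and 568 (0.64).

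*FGF21*, a hormone gene that PPARα and ATF4 both activate, had the largest negative difference of all genes kept. It was at 368 and 53.8 in normoxia (-2.46) and at 1041 and 465 in hypoxia (-1.14), so the array labelled knockdown was the lower of each pair. *FABP3*, a fatty acid carrier, was at 6219 and 2812 (-1.14). Apart from these, genes of fatty acid oxidation and PPAR targets lay near 0, with a median of -0.12 over 31 genes and the carnitine transferase genes *CPT1A* and *CPT2* at -0.31 and -0.22. Of 31 glycerolipid, lipid droplet and phospholipid genes 20 lay below 0, against 56.4% of all genes kept, with a median of -0.09. *DGAT2*, for the last step of triglyceride synthesis, was at 140 and 41.0 (-1.45), but its other probe sets reached 0.15. *LPCAT3*, which remodels phospholipids, was at 1336 and 611 (-1.11), and its 3 probe sets lay from -1.11 to -0.23. The lipid droplet coat gene *PLIN2* differed by 0.13. The 23 sphingolipid genes had a median of 0.02 and none differed 2-fold.

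**Figure D3:**
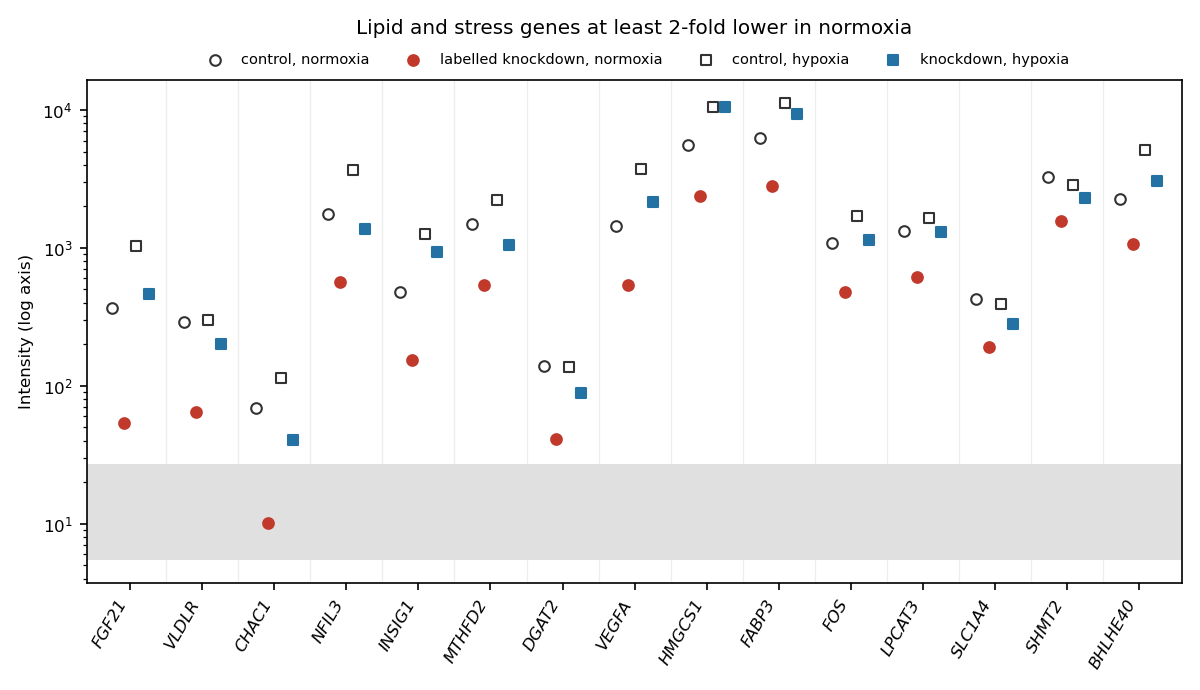
Intensities on a log axis of the 15 lipid and stress genes at least 2-fold lower in normoxia, on all 4 arrays. Circles are normoxia and squares hypoxia, open symbols the control cells and filled symbols the cells labelled knockdown, and the grey band is the range of the reporter probe sets (5.48 to 27.2). The normoxic array labelled knockdown is the lowest of the 4 values for each gene, and *HMGCS1* is at 10580 and 10600 on the hypoxic arrays.

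In the integrated stress response, kinases that sense amino acid shortage or misfolded proteins slow translation and so favour the transcription factor ATF4, which switches on amino acid transporters, serine and one-carbon enzymes and tRNA synthetases. This list had the lowest median of all lists described. Of 40 genes 38 lay below 0, against 56.4% of all genes kept, 8 were at least 2-fold lower and the median was -0.58. *ATF4* itself was bright, at 8556 and 5005 (-0.77). *CHAC1*, which degrades glutathione, was at 68.6 and 10.1 (-1.70), dim on the HIF2α-KD-labelled array, and its other probe set gave -0.89, under 2-fold. *NFIL3*, for a bZIP transcription factor, was at 1767 and 562 (-1.63), and its 3 probe sets lay from -1.63 to -0.32. *MTHFD2* and *SHMT2*, enzymes of mitochondrial one-carbon metabolism, were at 1503 and 538 (-1.45) and at 3285 and 1555 (-1.07). The serine enzyme *PSAT1* was at 10764 and 5812 (-0.89), the asparagine synthetase *ASNS* at 6683 and 4455 (-0.58) and the amino acid transporter *SLC1A4* at 425 and 191 (-1.09). *VEGFA*, *VLDLR* and *FGF21* are the other members at least 2-fold lower. The 2 genes above 0 were *INHBE* (0.05) and *CTH* (0.09).

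The same list was low in the hypoxic pair. There 37 of the 40 genes lay below 0, against 55.7% of all genes kept, 7 were at least 2-fold lower and the median was -0.43. Over both pairs 36 of the 40 lay below 0 in each, where 3286 of all 9749 genes did. *PPP1R15A*, whose product restores translation, was at 922 and 460 in normoxia (-0.98) and at 2432 and 621 in hypoxia (-1.94). *DDIT3*, for the stress factor CHOP, was at 184 and 131 (-0.44) in normoxia and at 580 and 185 in hypoxia (-1.57). For these 2 genes the hypoxic difference was the larger, whereas *MTHFD2* had the larger difference in normoxia (-1.45 and -1.08). *CHAC1* differed by -1.70 and -1.22 at its brightest probe set and by -0.89 and -1.17 at the other, so its probe sets gave opposite orders.

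Aminoacyl tRNA synthetases, which load tRNAs with amino acids, were below 0 for 16 of 18 genes, with a median of -0.31 and none at 2-fold. *CARS1* was at 2580 and 1410 and *YARS1* at 506 and 271, each lower by 0.86, followed by *SARS1* (-0.61) and *TARS1* (-0.55). Those above 0 were *QARS1* (0.02) and *FARSA* (0.20). The other symbols of the list were not analysed here.

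Chaperones of the endoplasmic reticulum did not share this direction. Of 42 genes of folding and the unfolded protein response 24 lay above 0 and the median was 0.04. *MANF*, a secreted stress-induced factor, was at 2914 and 5739 (0.97), the calreticulin gene *CALR* at 2432 and 4052 (0.73; 4 probe sets from -0.29 to 0.73) and *HSPA5*, for the chaperone BiP, at 9771 and 13512 (0.47). *XBP1*, the transcription factor of this response, was at 3960 and 2339 (-0.76). Heat shock chaperones had a median of -0.01 over 31 genes, and *HSPH1* was highest, at 3560 and 5590 (0.65). Neither list had a gene at 2-fold. Of 31 antioxidant targets of NRF2 21 lay above 0, with a median of 0.14. The quinone reductase gene *NQO1* was at 4488 and 7803 (0.80) and the glutathione reductase gene *GSR* at 169 and 281 (0.68), while *SLC7A11*, a cystine transporter that ATF4 also activates, was at 44.9 and 20.2 (-0.75).

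The 24 p53 and DNA damage targets were nearly balanced, 13 above and 11 below 0, with a median of 0.08. *CDKN1A*, which encodes the cell cycle inhibitor p21, was at 1618 and 3890 (1.26; 3 probe sets from 0.62 to 1.26) and *PLK2* at 643 and 1444 (1.15). *BAX* (0.56) and *MDM2* (0.40), both classical p53 targets, were higher by less. Of 23 AP-1 and immediate-early genes 11 lay above 0, against 43.5% of all genes kept, and the median was -0.01. Besides *FOS*, *EGR1* was at 142 and 72.5 (-0.84) and *MYC* at 654 and 391 (-0.72).

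HIF targets and glycolytic genes had a median of -0.05 over 47 genes, 28 of them below 0, against 56.4% of all genes kept. *VEGFA*, the angiogenic growth factor, was at 1447 and 535 (-1.41), and at 3752 and 2137 in hypoxia, but its other probe set gave -0.38 in normoxia. *BHLHE40*, a transcriptional repressor, was at 2248 and 1067 (-1.06), with further probe sets up to -0.01. The prolyl hydroxylase *P4HA1*, named above, and *BNIP3L* (403 and 244, -0.69), a mitophagy receptor, were lower by less than 2-fold. The cyclin gene *CCND1* was the member at least 2-fold higher, at 674 and 1460 (1.10). *ADM*, for adrenomedullin, was at 397 and 436 in normoxia (0.13) and at 9897 and 5268 in hypoxia (-0.91), and *LOX*, for lysyl oxidase, at 520 and 452 (-0.20) and at 999 and 668 (-0.57). The glycolytic genes *PGK1* (-0.12), *LDHA* (-0.22) and *ALDOA* (0.00) differed little in normoxia. *PFKFB3*, for a regulator of glycolysis, was higher, at 896 and 1461 (0.70), and its 3 probe sets lay from 0.38 to 0.70. In hypoxia it was at 6706 and 4980 (-0.43).

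Outside the 4 programs, none of 30 adherens and tight junction genes differed 2-fold, and 20 lay above 0 with a median of 0.11. The lowest were *CGN* (1231 and 619) and *MARVELD2* (140 and 63.6), tight junction components, each at -0.97. The other, dimmer probe set of *CGN* gave 0.04. *CDH1*, for E-cadherin, was dim on both normoxic arrays, at 15.45 and 18.88, so its difference of 0.15 rests on the background. *DOCK4*, which the study places downstream of HIF2α, was at 3.77 and 1.26 and did not pass the filter. Of 45 cell cycle genes 28 lay below 0, against 56.4% of all genes kept, with a median of -0.13. *CCND1* and *CDKN1A* were the members at 2-fold. Within the EGF receptor family, *ERBB3* was at 106 and 36.0 (-1.23) and *EGFR* at 646 and 1237 (0.92). Epithelial identity genes were bright on both arrays: *KRT18* was at 13868 and 13565 and *EPCAM* at 11719 and 10064. The 37 collecting duct and distal tubule markers summed to 36861 and 34371. Of these, 16 and 18 exceeded the background, whose cut-off was lower under the HIF2α-KD label. Most of that sum lay in *KRT18*, *EPCAM*, *KRT7* (5100 and 4981), *ATP1B1* (2918 and 2426) and *KRT8* (2180 and 2187). The water channel *AQP2*, which defines the principal cell, lay at 1.00 and 6.74, within the background.

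The normoxic differences were then set beside the hypoxic ones for the same genes. In hypoxia 10 genes were at least 2-fold higher in the knockdown cells and 86 lower. Of the 60 genes that were higher in normoxia, 40 lay below 0 in hypoxia and 8 of them at 2-fold, where 55.7% of all genes kept lay below 0. For 51 of the 60 the control array in normoxia was the lowest of the 4 arrays, as it was for 2249 of all 9749 genes. The normoxic HIF2α-KD-labelled array was the highest of the 4 for 43 of them (71.7%, against 21.2% of all genes). Of the 53 genes that were lower in normoxia, 45 lay below 0 in hypoxia as well, 14 of them at 2-fold, and 50 had their lowest value on the normoxic HIF2α-KD-labelled array (94.3%, against 30.7%). Genes chosen for a large difference between the normoxic arrays tend to lie at an end of the 4 values by that choice, so these shares are a description.

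**Figure D4:**
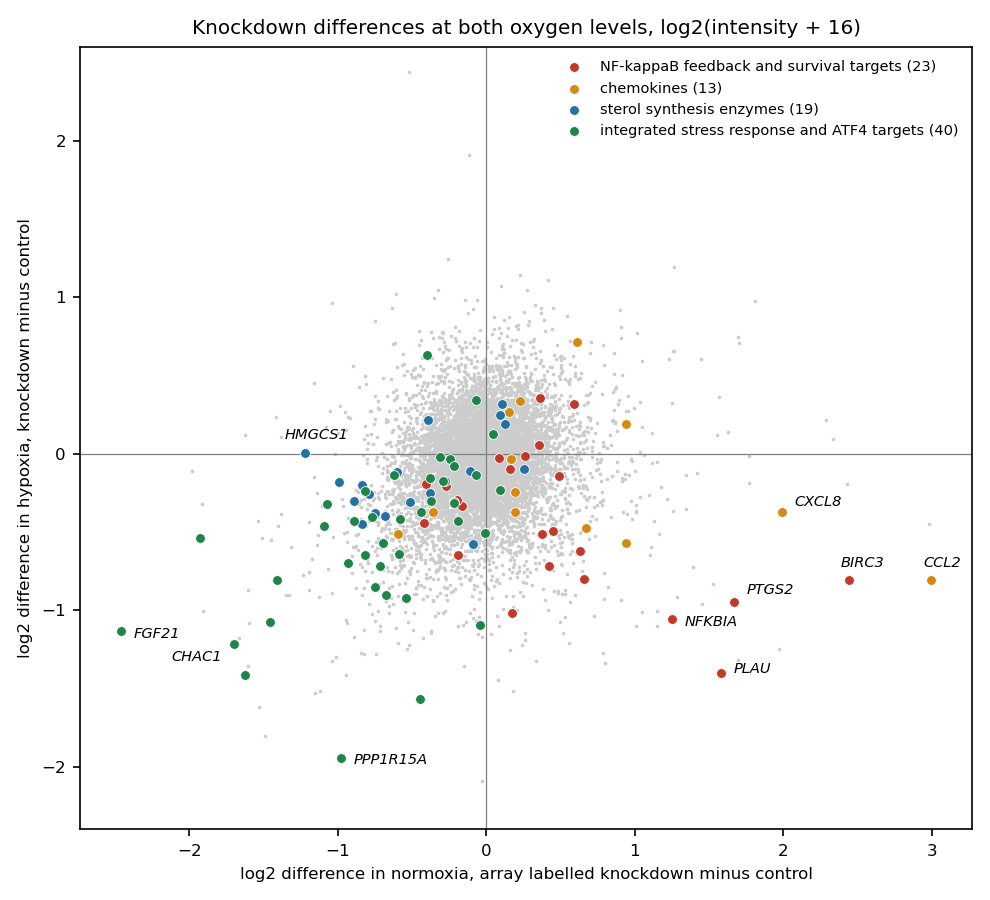
Log2 difference of the knockdown label minus control for each of 9749 genes (grey), in normoxia on the horizontal axis and in hypoxia on the vertical axis, with 4 lists in colour and their numbers of genes in brackets. Of the NF-κB targets and chemokines, *CCL2* (3.00 and -0.81) and *PLAU* (1.58 and -1.40) lie at the lower right. In these lists 6 NF-κB targets and 2 chemokines lie below 0 in both pairs, and 3 and 4 above 0 in both. Genes of the integrated stress response such as *FGF21* (-2.46 and -1.14) lie at the lower left, and sterol synthesis enzymes such as *HMGCS1* (-1.22 and 0.00) to the left.

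The probe sets of a gene give a check within the array, although they read the same RNA. In the 4 programs 38 of the 2-fold genes had several kept probe sets, 92 in all. For 36 of them all probe sets lay on the same side of 0, and for 19 all were at least 2-fold different. *DGAT2* and *IDO2* had probe sets on both sides. Over all 2-fold genes with several probe sets, the others lay on the same side for 30 of 34 higher and 26 of 30 lower genes. Outside the programs, *SLC4A11*, *EXOC5*, *CHN2*, *CCSAP*, *CYP4A37* and *UPRT* had probe sets on both sides. Of all 60 higher genes 14 were dim on a normoxic array, as were 5 of the 53 lower genes, and the size of such a difference rests on the background.

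**Figure D5:**
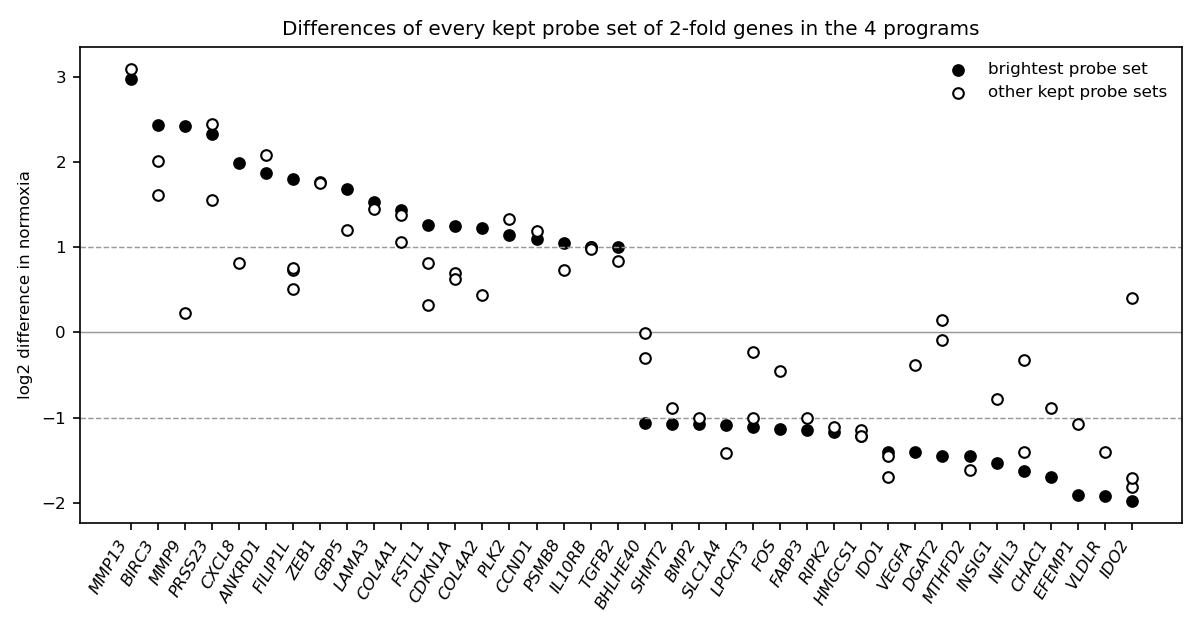
Log2 difference in normoxia of every kept probe set of the 38 genes in the 4 programs that were at least 2-fold different and had several probe sets. Filled points are the brightest probe set, which stands for the gene, open points are the others, and dashed lines mark 2-fold. The probe sets of *MMP13* lie at 2.98 and 3.10, whereas those of *MMP9* lie at 2.43 and 0.22.

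The threshold itself marks no break in the values. The smallest positive differences inside it were those of *TGFB2* (1.00), *IL10RB* (1.01) and the peptidase gene *DPP4* (1.01), and the largest outside were *IFNK* (0.99), *RAB5B* (0.98) and *LRRC8C* (0.98). In the negative direction *FGGY*, *ANKRD44* (-1.01 each) and *UPRT* (-1.02) lay just inside, and *ANXA13* (-0.998), *FDFT1* (-0.99) and *RAB28* (-0.99) just outside.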

How the data were processed

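RNA from MDCK cells was hybridised by the authors to Affymetrix canine arrays, 1 for each of 4 conditions, after biotin labelling of 100 ng total RNA with a 3' kit. The deposited table holds a linear intensity per probe set and array. How it was summarized, background-corrected and scaled, and with which software, is not given in the sources used here. Probe sets with 1 gene symbol in the platform annotation were used, 29254 of 42924. A further 439 carry several symbols, 13167 none, and 64 are reporters, of which 63 dim ones measured the background.

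The authors' intensities were taken as log2(intensity + 16), and the array labelled wild type in normoxia was subtracted from that labelled HIF2A knockdown. The filter at 28.75 kept 9749 genes. Of these, 270 have a LOC symbol and were counted without being named. With 1 array a side there was no test, and genes were counted at a log2 difference of 1. The 32 program lists and 8 further lists, the comparison and the rule for named genes were chosen with earlier results of these data known. The rule takes *EPAS1*, *TBP* and those named by the study, the top 20 differences on either side, every list member at 2-fold, and in each list at most the 4 members that differed most. Not every gene the rule takes is described. Further named genes were chosen after their values were seen. Some listed symbols have no probe set with 1 symbol and are not analysed here. The gene table was tested on simulated data. The search for promoter motifs was not run and no sequence is printed, because no sequence was used here.

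Alternatives were pseudocounts of 1 and 64, quantile normalization, median centring, cyclic loess, no filter, a filter at 175 (the 75th percentile), a filter on the normoxic arrays, averaging over a gene's probe sets and a 1.5-fold threshold. Python 3.11.15 with numpy 2.4.6, pandas 2.3.3 and matplotlib 3.10.9, and R 4.3.3 with limma 3.58.1 for normalization, were used.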

Additional observations from a re-analysis of the deposited data

Results flagged for a closer look

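For 8 genes the knockdown label went with a difference of at least 2-fold in opposite directions at the 2 oxygen levels, higher in normoxia and lower in hypoxia. Each value is the log2 difference in normoxia minus that in hypoxia, from 1 array per condition, so the difference between oxygen levels was not tested. *INHBA*, for the activin subunit, had the largest value, 3.22 (1.97 and -1.25). The interferon-induced gene *GBP5* followed at 3.01 (1.69 and -1.32) and the urokinase gene *PLAU* at 2.99 (1.58 and -1.40). The value was 2.31 for the NF-κB inhibitor *NFKBIA* (1.25 and -1.06) and 2.25 for the transcription factor *SNAI2* (1.15 and -1.10). The kinase gene *PLK2* was at 2.15 (1.15 and -1.004) and the peptidase gene *DPP4* at 2.11 (1.01 and -1.10). *PTH*, for parathyroid hormone, was at 2.06 (1.05 and -1.01). Its intensity was 24.8 on the control array in normoxia and 23.3 on the knockdown array in hypoxia, both within the background. No gene had the opposite pattern at 2-fold.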

How the results depend on the processing

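No paired analysis was possible because each condition has 1 array, and for the same reason no replicate could be left out. None of the 69 named genes at 2-fold and no list median larger than the spread between probe sets of a gene (0.223) changed sign under any alternative. The genes were chosen at 2-fold on the same arrays that the alternatives reuse. For a single probe set neither a pseudocount nor a filter can change the sign, so this stability was largely set in advance. The counts of 60 higher and 53 lower genes became 112 and 123 with a pseudocount of 1, 34 and 31 with 64, and 239 and 346 at a 1.5-fold threshold. A filter at the 75th percentile of intensity left 38 higher and 38 lower. The other alternatives gave 45 to 75 higher and 42 to 56 lower. At that filter, medians shifted for chemokines (0.67, 3 genes), cytokines (0.72, 2 genes), receptors (0.44, from 0.16), laminins (0.46, from 0.23), metalloproteinases (0.17, from -0.07), plasminogen genes (0.36) and p53 targets (0.37), with fewer genes in each, and no fibroblast or leukocyte marker was left. The mesenchymal median was 0.24 without a filter. Over the alternatives the medians ranged from -0.71 to -0.37 for the integrated stress response, -0.64 to -0.39 for sterol synthesis, -0.36 to -0.24 for tRNA synthetases and 0.16 to 0.46 for NF-κB feedback targets. Lists with medians near 0, such as collagens, AP-1 factors, HIF targets and heat shock chaperones, took either sign, and the interferon list was at -0.20 with the filter at the 75th percentile. Of these 69 genes, 17 lay under 2-fold with a pseudocount of 64, among them *ZEB1* (0.92), *CHAC1* (-0.84) and *IL23A* (0.71). When a gene's probe sets were averaged 17 did, among them *VEGFA* (-0.89), *COL4A2* (0.83), *CDKN1A* (0.86), *FOS* (-0.80), *CYP4A37* (-0.77) and *DGAT2* (-0.46). *BHLHE40* was also at -0.99 with quantile normalization and with median centring. The depth is limited by the background: 768 of the genes kept were dim on a normoxic array.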

Other observations

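Of the 2-fold genes, 28 of 60 higher and 32 of 53 lower stand in none of the inflammatory, matrix, lipid and stress lists. Among the lower ones, *KLF3*, for a transcriptional repressor, was at 204 in control cells and 42.6 under the HIF2α-KD label in normoxia, and at 158 and 70.4 in hypoxia, differences of -1.91 and -1.01. *DSG3*, which encodes the desmosomal cadherin desmoglein 3, was at 714 and 244 and at 900 and 246 (-1.49 and -1.80). *JMJD1C*, of a histone demethylase family, was at 343 and 108 and at 486 and 147 (-1.53 and -1.62), but its 3 probe sets lay from -1.53 to -0.03 in normoxia. *FGFBP1*, for a carrier of fibroblast growth factors, was at 1086 and 346 and at 3400 and 1851 (-1.60 and -0.87). For each of these genes the knockdown label was lower at both oxygen levels.

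*PCK2*, for mitochondrial phosphoenolpyruvate carboxykinase, was at 800 and 308 (-1.33), and its 3 probe sets lay from -1.47 to -1.07. It is named after its values were seen, as are *CTSK* and *GCH1*. The cytochrome P450 genes *CYP4A37* and *CYP4A11* were lower in normoxia, at 293 and 85.9 (-1.60) and at 261 and 88.1 (-1.41). In hypoxia they were at 820 and 310 (-1.36) and at 286 and 339 (0.24). The other probe set of *CYP4A37* gave 0.06 in normoxia. These near-identical family members may share probes, so the values are uncertain.

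Among the higher genes outside the programs, *SLC4A11*, for a membrane transporter, was at 105 and 397 (1.77), although its other probe set gave -0.06. *SNAP91*, for a clathrin adaptor, was at 73.7 and 262 (1.63) and *CTSK*, for the collagen-cutting protease cathepsin K, at 974 and 2123 (1.11), with its other probe set at 1.23. *GCH1*, the first enzyme of tetrahydrobiopterin synthesis, was at 180 and 481 (1.35), with its other probe set at 1.37. *RAB37* (1.70), *CASP12* (1.56) and *CAMK1D* (1.57) were dim on the control array. *RAB37*, at 3.03 and 45.8, passed the filter only through the normoxic HIF2α-KD-labelled array.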
